A study of Homo sapiens with 11 samples.

Results

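Thioredoxin reductase 1 (TXNRD1) and 9 further genes of the thioredoxin system and the NRF2 antioxidant response were followed in PC3 cells, an androgen-independent human prostate cancer line derived from a bone metastasis. The 10 genes, TXNRD1, TXN, NFE2L2, KEAP1, GCLC, GCLM, NQO1, HMOX1, SRXN1 and PRDX1, were chosen by symbol from 33616 named genes, and each was read from 1 probe set that carries its symbol alone. The set was selected on measured values, because TXNRD1 was strongly lower with siHOXA11 at both times, so every difference between siHOXA11 and siNC is given below as a description with no test.

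PC3 cells were transfected with a control siRNA (siNC) or with siRNAs against the homeobox gene HOXB13 (siHOXB13), against HOXA11 (siHOXA11), or against the antisense long non-coding RNA HOXA11-AS (siHOXA11-AS), and RNA was taken at 24 h and 48 h. Cells titled shNC, shIBSP(1) and shIBSP(2) were measured at 48 h only, and whether these held shRNA or siRNA is not settled, since the titles and the other labels differ. There were 11 human Clariom D arrays, 1 per condition, so no condition had a replicate. All groups are the same cell line, and a change of RNA per cell cannot be told apart from a change in the number of cells that express a gene.

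HOXB13 went against 2 labels. Its log2 level was 10.10 on siNC and 8.09 on siHOXB13 at 24 h, but 8.52 on the siNC-labelled array and 10.36 on the siHOXB13-labelled array at 48 h. Every 48 h difference below that uses either array is therefore a difference between arrays as labelled. HOXA11-AS was 6.30 on siNC and 6.01 on siHOXA11-AS at 24 h, and 6.68 and 6.4 at 48 h. It was 6.29 on siHOXA11 at 24 h and 6.25 at 48 h. The siHOXA11-AS array was thus the lowest of the siRNA arrays at 24 h but not at 48 h, and these values leave its silencing unsettled. IBSP lay between 3.17 and 4.40 on the 11 arrays, near the background probe sets, whose median was 3.26 to 3.32. HOXA11 itself was not analysed here, so its silencing by siHOXA11 is not checked on these arrays. The epithelial markers KRT8 and EPCAM were high on all 11 arrays, between 15.85 and 17.01 and between 15.35 and 16.68. KLK3, COL1A1, PDGFRB, PTPRC, PECAM1 and VWF, markers of luminal, stromal, immune and endothelial cells, lay between 3.71 and 8.87. The array of siHOXA11 at 48 h stood apart from the others, with a median root mean square distance of 0.82 to the other arrays, against 0.57 to 0.71 for the rest, and with KRT18 at 12.91, against 14.37 to 15.22 elsewhere. The part of that array as a whole in the differences below was not tested.

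NRF2, the protein of NFE2L2, is a transcription factor that KEAP1 holds in the cytoplasm and directs to degradation by the proteasome. Oxidants and electrophiles modify KEAP1, NRF2 then accumulates in the nucleus and, with a small MAF partner, binds antioxidant response elements of genes for detoxification and redox enzymes. TXNRD1, a selenoprotein, uses NADPH to reduce thioredoxin (TXN), which in turn reduces peroxiredoxins and other proteins, while GCLC and GCLM are the catalytic and modifier subunits of the enzyme that limits glutathione synthesis. NRF2 is constitutively active in many tumours through mutations of KEAP1 or of NFE2L2 itself.

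The promoters of the 10 genes were searched for the core of the antioxidant response element, TGACNNNGC, on both strands, from 250 bases before to 50 bases after each transcript start (RefSeq, GRCh38.p14). The table used held 11 such promoters for 8 of the genes, and none for HMOX1 and PRDX1. The core was present in 4 of the 11, and in 13.3% of all 35116 promoters of that length. The 4 were both TXNRD1 promoters, that of GCLM and 1 of KEAP1, whose other promoter had no match. Sequence outside this window was not searched, so a promoter without a match may still have the core farther away. The TXNRD1 promoters and the GCLM promoter are shown, the first because TXNRD1 chose the set and the second for comparison with a gene that did not follow it. The core is in capitals on whichever strand it lies. A match is a description and does not show binding.
TXNRD1, chr12:104215529-104215828, plus strand: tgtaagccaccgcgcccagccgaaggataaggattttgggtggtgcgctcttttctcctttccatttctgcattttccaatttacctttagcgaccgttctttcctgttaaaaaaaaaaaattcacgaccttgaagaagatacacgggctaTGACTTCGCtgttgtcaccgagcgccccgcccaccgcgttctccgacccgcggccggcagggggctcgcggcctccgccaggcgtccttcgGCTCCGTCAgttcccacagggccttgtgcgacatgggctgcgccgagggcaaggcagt
TXNRD1, chr12:104286782-104287081, plus strand: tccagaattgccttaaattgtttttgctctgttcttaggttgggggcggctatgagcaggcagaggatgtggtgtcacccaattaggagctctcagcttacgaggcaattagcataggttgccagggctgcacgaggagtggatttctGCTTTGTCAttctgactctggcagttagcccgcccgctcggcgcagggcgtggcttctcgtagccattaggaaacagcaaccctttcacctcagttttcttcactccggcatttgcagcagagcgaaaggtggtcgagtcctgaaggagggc
GCLM, chr1:93909381-93909680, minus strand: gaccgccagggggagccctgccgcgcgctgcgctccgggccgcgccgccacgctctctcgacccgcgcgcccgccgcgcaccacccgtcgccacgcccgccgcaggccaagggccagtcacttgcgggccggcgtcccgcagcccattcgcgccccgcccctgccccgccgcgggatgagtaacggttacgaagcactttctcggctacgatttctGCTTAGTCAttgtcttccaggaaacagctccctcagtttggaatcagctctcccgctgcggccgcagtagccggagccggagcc

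The siRNAs were designed against 2 sequences of HOXA11 that were combined in transfection, and their 23-base target sequences are shown because the difference that chose the genes rests on this reagent. A and T made up 22 of the 23 bases of the first and 18 of the second.
siHOXA11 (1): aagataaatattatattatatat
siHOXA11 (2): ttcaaaaaacttgtaaataaagg

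TXNRD1 was the 1 gene of the 10 with at least a 2-fold difference between siHOXA11 and siNC as labelled. At 24 h its log2 level was 14.27 on siNC, 14.88 on siHOXB13, 14.66 on siHOXA11-AS and 13.22 on siHOXA11. At 48 h it was 14.55 on the siNC-labelled array, 13.54 on the siHOXB13-labelled array, 14.83 on siHOXA11-AS and 10.85 on siHOXA11. The siHOXA11 array was thus the lowest of the 4 siRNA arrays at each time, and the 48 h array was the lowest of all 11. On the linear scale of the deposited values, these 48 h levels were 23967 on the siNC-labelled array and 1845 on siHOXA11.

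The difference from siNC was -1.04 on the log2 scale at 24 h, or 2.06-fold lower, and -3.70 at 48 h, or 13-fold lower. Among 16808 genes kept for their mean level, TXNRD1 was the 132nd lowest difference at 24 h and the 5th lowest at 48 h. At least a 2-fold lower level was seen in 0.976% of all genes at 24 h, in 13.2% at 48 h and in 0.173%, or 29 genes, at both times. TXNRD1 had the lowest 48 h difference of those 29 genes. The 24 h value lies just past the 2-fold bound. Against the mean of the other 3 siRNA arrays of the same time, siNC included, TXNRD1 was at -1.38 for 24 h and -3.46 for 48 h. With the siHOXB13-labelled array at 48 h as the control, the 48 h difference was -2.69.

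The order of the TXNRD1 levels over all 11 arrays ran from siHOXB13 at 24 h (14.88) through siHOXA11-AS at 48 h and 24 h, the siNC-labelled array at 48 h and siNC at 24 h (14.27) to shIBSP(1) (13.81), shNC (13.77), the siHOXB13-labelled array at 48 h (13.54), shIBSP(2) (13.44) and the 2 siHOXA11 arrays. Neighbours in this order were 0.03 to 0.46 apart down to siHOXA11 at 24 h, which is less than the residual SD of 0.90 for TXNRD1 in the fit of the 8 siRNA arrays, a spread that holds the siHOXA11 arrays too. The step from siHOXA11 at 24 h to siHOXA11 at 48 h was 2.38. The 24 h siHOXA11 level, the lowest at its time, was only 0.22 below that of shIBSP(2).

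**Figure D1:**
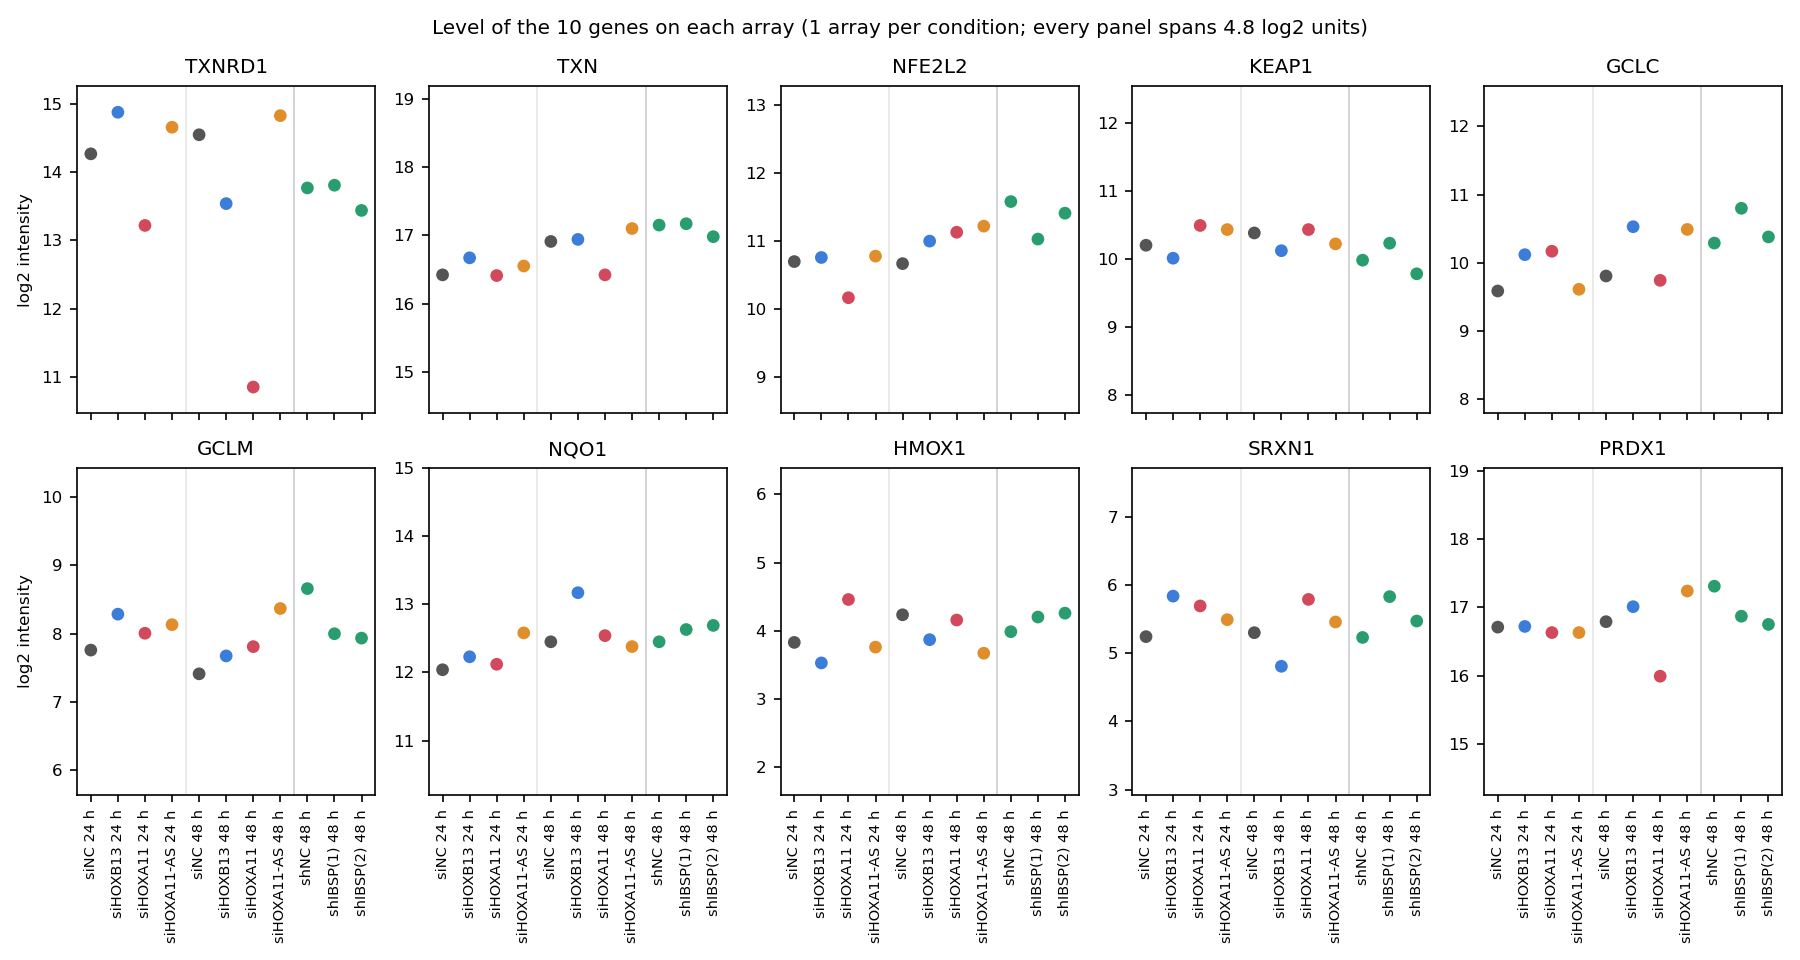
Log2 intensity of the 10 genes on each of the 11 arrays, 1 point per array, with siRNA arrays of 24 h, siRNA arrays of 48 h and sh-titled arrays from left to right; colours mark siNC (grey), siHOXB13 (blue), siHOXA11 (red), siHOXA11-AS (orange) and sh-titled arrays (green). TXNRD1 drops to 10.85 on siHOXA11 at 48 h, while the range over the 11 arrays was at most 1.41 for each other gene; siNC and siHOXB13 at 48 h are shown as labelled.

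Over the 11 arrays TXNRD1 spanned 4.03 log2 units, which was wider than in 99.5% of the genes kept, and 1.65 without the siHOXA11 array of 48 h. The median range of all genes kept was 1.23. The other 9 genes spanned between 0.71 (KEAP1) and 1.41 (NFE2L2). HMOX1, which encodes the heme-degrading enzyme heme oxygenase 1, lay between 3.53 and 4.46 on the 11 arrays, near background, with 3.83 on siNC and 4.46 on siHOXA11 at 24 h, and did not pass the filter on mean level, so 9 of the 10 genes were tested below.

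The substrate of TXNRD1 moved less than the reductase. TXN was 16.42 on siNC and 16.41 on siHOXA11 at 24 h, and 16.91 on the siNC-labelled array and 16.42 on siHOXA11 at 48 h. Its difference at 48 h was -0.49, where the median over all genes was -0.14. PRDX1, a peroxiredoxin that thioredoxin reduces, was 16.71 on siNC and 16.63 on siHOXA11 at 24 h, and 16.79 on the siNC-labelled array and 15.99 on siHOXA11 at 48 h. This was a 1.73-fold lower level at 48 h, and the siHOXA11 array was the lowest of the 11. PRDX1 was past 2-fold lower against the other 2 siRNA arrays of 48 h, at -1.01 from the siHOXB13-labelled array and -1.24 from siHOXA11-AS. So were 14.3% and 17.5% of all genes in the same comparisons. SRXN1, the sulfiredoxin that restores overoxidised peroxiredoxins, was 5.24 on siNC and 5.69 on siHOXA11 at 24 h, and 5.30 on the siNC-labelled array and 5.79 on siHOXA11 at 48 h.

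The 2 genes of the NRF2 switch did not follow TXNRD1. NFE2L2 was 10.70 on siNC and 10.17 on siHOXA11 at 24 h, its lowest level of all 11 arrays, but 10.67 on the siNC-labelled array and 11.13 on siHOXA11 at 48 h. It was therefore 0.53 lower at the first time and 0.46 higher at the second, both short of 2-fold. KEAP1 was 10.20 on siNC and 10.49 on siHOXA11 at 24 h, and 10.38 and 10.43 at 48 h, so it differed by 0.29 and 0.05.

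Of the typical target genes of NRF2, NQO1, a quinone reductase, was 12.04 on siNC and 12.12 on siHOXA11 at 24 h, and 12.45 on the siNC-labelled array and 12.54 on siHOXA11 at 48 h. Its differences were 0.09 at each time, and -0.63 from the siHOXB13-labelled array at 48 h. GCLC was 9.59 on siNC and 10.17 on siHOXA11 at 24 h, and 9.81 and 9.74 at 48 h. GCLM was 7.76 and 8.01 at 24 h, and 7.41 and 7.81 at 48 h. Both subunits were thus within 1.5-fold of siNC as labelled at either time, while GCLC was 1.72-fold lower than on the siHOXB13-labelled array at 48 h.

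Of the 9 genes kept, 1 (TXNRD1) was at least 2-fold lower with siHOXA11 at 24 h and 1 (TXNRD1) at 48 h, and 0 were at least 2-fold higher at either time, beside 3.69% of all genes at 24 h and 3.9% at 48 h. Without TXNRD1 the median of the other 8 was 0.17 at 24 h, against 0.16 over all genes, and 0.07 at 48 h, against -0.14. Of the 9, the genes nearest to the 2-fold bound without reaching it were GCLC at 24 h (0.58) and PRDX1 at 48 h (-0.79). With the 2 doubtful labels exchanged, an alternative added after the data were seen, 2 of the 9 genes (TXNRD1 and PRDX1) were at least 2-fold lower at 48 h, beside 14.3% of all genes. The median of the 9 was then -0.52 in place of 0.05, where that of all genes was -0.13. The contrast chose the genes, so nothing is read from these counts.

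**Figure D2:**
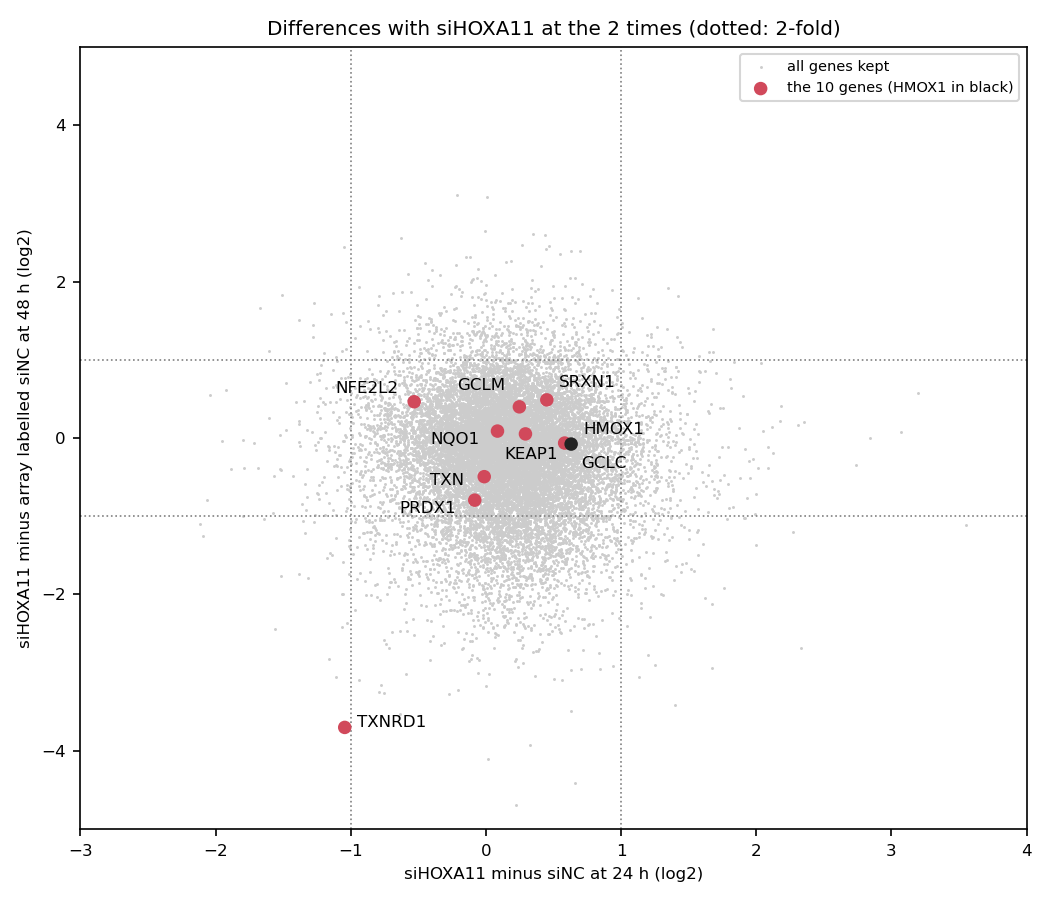
Log2 difference of siHOXA11 from siNC at 24 h (x axis) against the difference at 48 h (y axis) for all genes kept (grey, with 1 gene outside the axes) and the 10 genes (red, HMOX1 in black); dotted lines mark 2-fold. TXNRD1 sits at -1.04 and -3.70, and the other genes lie within 2-fold at both times.

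The wider pathway was read in 5 lists of 68 different genes kept, none of them a gene of the 10. At 24 h no gene of these lists was 2-fold lower or higher. At 48 h, 4 further peroxiredoxins were at least 2-fold lower on the siHOXA11 array, as were 13.2% of all genes. PRDX2, a cytosolic peroxiredoxin, was 14.99 on the siNC-labelled array and 12.92 on siHOXA11, or 4.20-fold lower. PRDX4, the peroxiredoxin of the endoplasmic reticulum, was 13.29 and 11.42, or 3.66-fold lower. PRDX3, the mitochondrial peroxiredoxin, was 12.02 and 10.25, or 3.42-fold lower, after 11.30 on siNC and 10.87 on siHOXA11 at 24 h.

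PRDX6 was 17.16 and 16.02 at 48 h, or 2.19-fold lower. For each of these 4 peroxiredoxins and for PRDX1 the siHOXA11 array of 48 h was the lowest of the 11, as it was for 25.8% of all genes kept. In the thioredoxin and peroxiredoxin list, 6 of 15 genes kept were at least 2-fold lower at 48 h, the others being TXNIP (-1.51), an inhibitor of thioredoxin, and TXNL1 (-1.13), and the list's median was -0.56 against -0.14 for all genes. With the labels exchanged, PRDX2 (-1.74) and PRDX3 (-1.25) were still past 2-fold, and PRDX6 (-0.95) and PRDX4 (-0.72) were not. In all, 5 genes of the list were then at least 2-fold lower, beside 14.3% of all genes. The siHOXA11 array was the lowest of the 11 for 8 of these 15 genes and for 2 of the 9, TXNRD1 and PRDX1. Its lower KRT18 and its distance from the other arrays move with these values, and their part was not tested.

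Among 19 NRF2 target genes outside the 10, 4 were at least 2-fold lower at 48 h and 1 higher, beside 13.2% and 3.9% of all genes. UGDH, which makes UDP-glucuronic acid, was 13.91 on the siNC-labelled array and 12.16 on siHOXA11, and the other 3 were AKR1C3 (-1.65), GSR (-1.29) and PGD (-1.01). PIR, the iron-binding protein pirin, went the other way. It was 7.03 on siNC and 7.98 on siHOXA11 at 24 h, and 8.19 on the siNC-labelled array and 9.46 on siHOXA11 at 48 h. The list's median was 0.45 at 24 h and -0.36 at 48 h. With the labels exchanged, UGDH (-1.60) was the 1 gene of the list still past 2-fold at 48 h, with AKR1C3 at -0.93, GSR at -0.62, PGD at -0.39 and PIR at 0.73.

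Of 16 glutathione and reactive oxygen enzymes, 3 were at least 2-fold lower at 48 h, GPX8 (-2.32), GSR (-1.29, also in the list of NRF2 targets) and GSTO1 (-1.05), beside 13.2% of all genes, and the list's median was -0.70 against -0.14. With the labels exchanged, GPX8 (-1.85) alone was past 2-fold, beside 14.3% of all genes lower, and that median was -0.14 against -0.13. Of 10 NRF2 partners, inhibitors and degradation genes, 2 were lower by at least 2-fold, beside 13.2% of all genes. They were KLHL12 (-1.44) and BACH1 (-1.21), a repressor at antioxidant response elements. With the labels exchanged these were -1.03 and -0.94, and RBX1 and SQSTM1 were past 2-fold in addition. That made 3 of the 10, beside 14.3% of all genes. Of 12 selenoprotein and selenocysteine genes, 0 reached 2-fold in either direction at 48 h, beside 13.2% of all genes lower and 3.9% higher. Their median was -0.21. With the labels exchanged 1 of them was past 2-fold in each direction, beside 14.3% of all genes lower and 5.47% higher. PRDX2, PRDX4, PRDX6, TXNIP, TXNL1, AKR1C3, GSR, PGD, GPX8, GSTO1, KLHL12, BACH1, RBX1 and SQSTM1 were named after their values were seen.

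**Figure D3:**
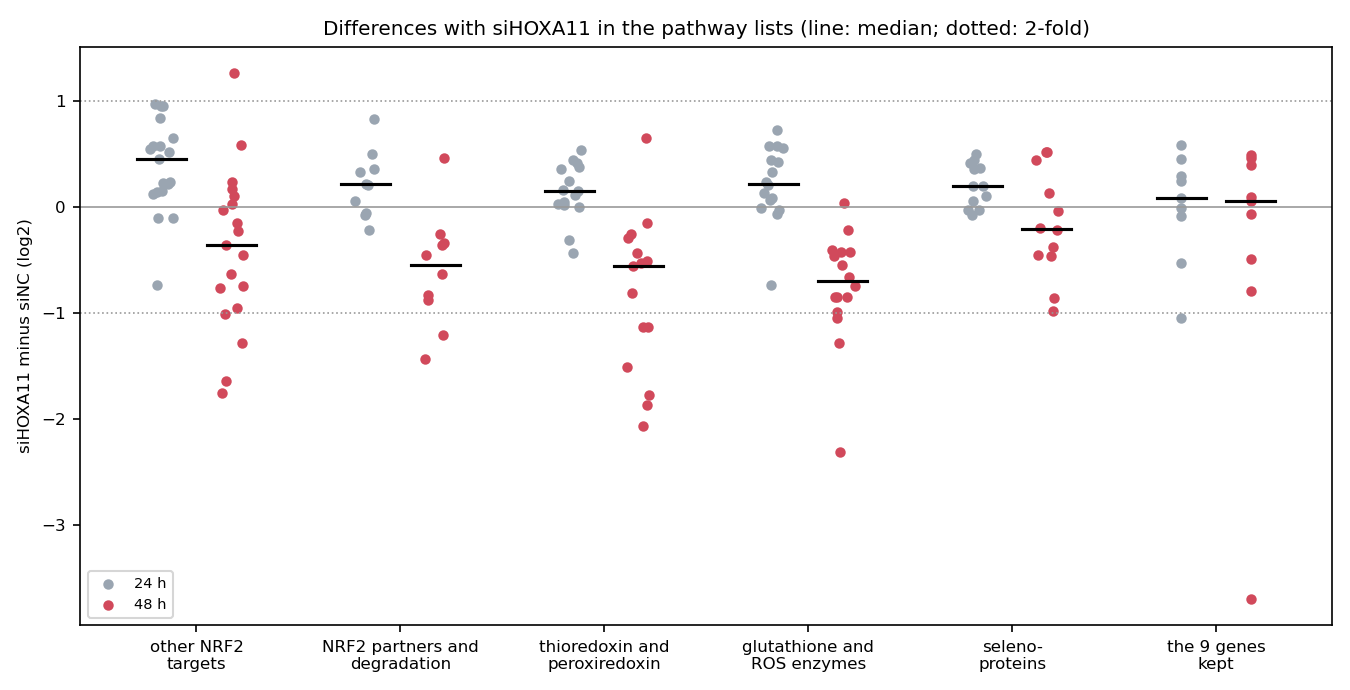
Log2 difference of siHOXA11 from siNC at 24 h (grey) and 48 h (red) for the genes of the 5 pathway lists and the 9 genes kept, 1 point per gene, with a line at each median; dotted lines mark 2-fold. At 48 h the medians of the lists lie between -0.70 and -0.21, and that of the 9 genes at 0.05 with TXNRD1 at -3.70.

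The genes whose pattern over the 11 arrays was most like that of TXNRD1 came from outside the 10 genes and the 5 lists. They were CDYL (r = 0.98), a chromodomain protein of chromatin, CCDC47 (r = 0.97), a protein of the endoplasmic reticulum, TSSC2 (r = 0.96), RTN4 (r = 0.96), a reticulon that shapes the endoplasmic reticulum, and RAD18 (r = 0.95), a ubiquitin ligase of DNA damage tolerance. These are Pearson correlations over 11 arrays, which share the low siHOXA11 array of 48 h, and without it they were 0.81 to 0.91. All 5 genes were at least 2-fold lower with siHOXA11 at 48 h, from -1.22 (TSSC2) to -2.14 (RAD18), beside 13.2% of all genes. They were picked for likeness to TXNRD1, which was lowest on that array, so their low level there is no separate result. None of the 5 was 2-fold lower at 24 h, where CDYL was lowest at -0.43, beside 0.976% of all genes. Of the 9 genes kept, PRDX1 was most like TXNRD1, with r = 0.65 over the 11 arrays and 0.02 without the siHOXA11 array of 48 h. For the other 7 genes kept r lay between -0.21 (NQO1) and 0.31 (TXN).

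**Figure D4:**
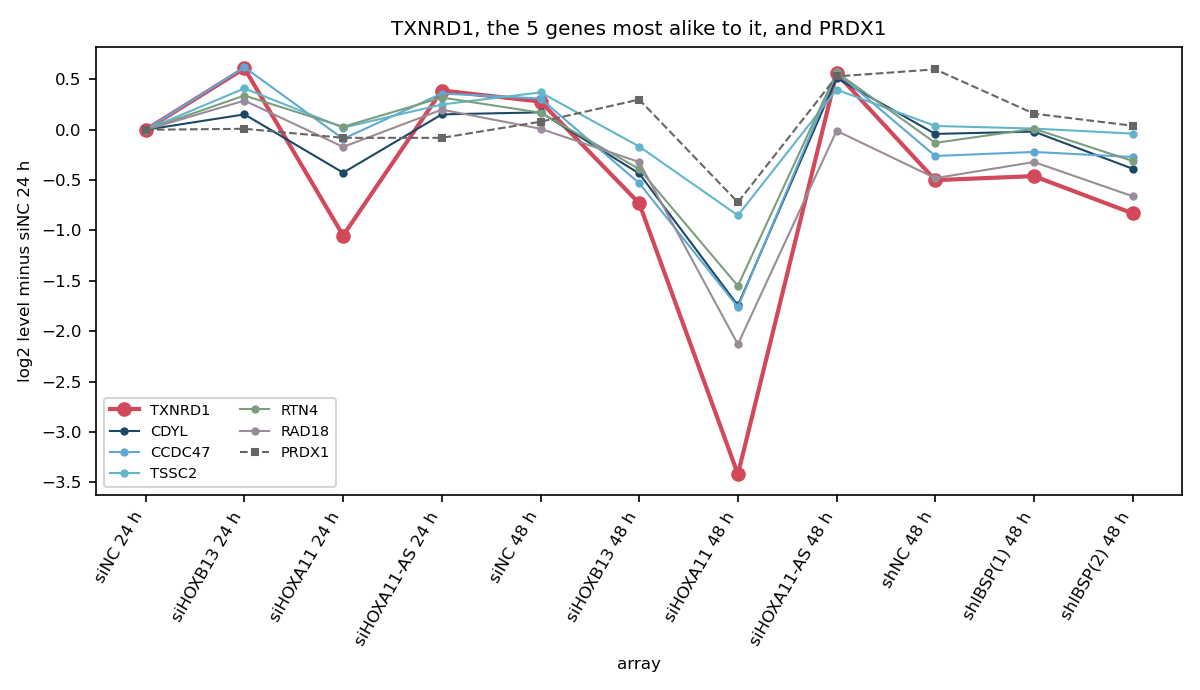
Log2 level of TXNRD1 (thick red line), of the 5 genes with the highest correlation to it, and of PRDX1 (dashed) on each of the 11 arrays, as the difference from siNC at 24 h. All fall to their lowest point on siHOXA11 at 48 h, TXNRD1 to -3.42 and PRDX1 to -0.72, and at 24 h TXNRD1 lies lowest. The 5 genes were picked for likeness to TXNRD1 over these arrays, so their fall on that array is no separate result.

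The remaining comparisons did not enter the choice of the genes, although those with siNC share its arrays with it and with each other. The differences between siHOXA11-AS and siNC, and between siHOXB13 and siNC, as an average of both times, came from a limma fit of the 8 siRNA arrays across 16808 genes. The spread in this fit holds the siHOXA11 arrays too, so nothing is read from TXNRD1 not being called.

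With siHOXA11-AS, all 9 genes had a fitted difference above 0, between 0.04 and 0.67, with a median of 0.24, where the median of all genes was 0.09. The share of all genes above 0 is not given here, so nothing is read from this count. Over 18 alternative fits the sign of KEAP1 turned in 4, of TXNRD1, GCLC and NQO1 in 2 each, and of NFE2L2 and PRDX1 in 1 each. TXN, GCLM and SRXN1 kept their sign. TXNRD1, low with siHOXA11, was not low here: 14.66 against 14.27 on siNC at 24 h, and 14.83 against 14.55 on the siNC-labelled array at 48 h. GCLM had the smallest p of the 9. It was 8.13 on siHOXA11-AS and 7.76 on siNC at 24 h, and 8.37 on siHOXA11-AS and 7.41 on the siNC-labelled array at 48 h. The fitted difference of 0.67 ± 0.32 (SE) did not pass (limma, adjusted p = 1). In all, 0 of the 9 genes and 0% of 16808 genes were called at an adjusted p of 0.05 by limma, with 672 genes at an unadjusted p under 0.05 and none of the 9 among them. With the 2 doubtful labels exchanged, 2205 genes had an unadjusted limma p under 0.05, none of the 9 among them, and 16 genes of all were called. On single arrays no gene of the 9 reached 2-fold at 24 h or 48 h, beside 5.66% and 5.73% of all genes in either direction.

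With siHOXB13, 7 of the 9 genes had a fitted difference above 0 and 2 below, with a median of 0.14, where that of all genes was 0.08. Here too the share of all genes above 0 is not given, so nothing is read from this count. Signs turned over 18 alternative fits in 4 for TXNRD1, in 3 each for SRXN1 and PRDX1 and in 2 for NFE2L2. For KEAP1, GCLC and NQO1 the sign turned in 1 each, while TXN and GCLM kept theirs. By limma 0 of the 9 were called, as were 0% of all genes. At an unadjusted p under 0.05 were 170 genes (1.01%), and 0 of the 9 among them. With the 2 doubtful labels exchanged, these were 1962 genes, again with 0 of the 9 among them, and 2 genes of all were called. GCLC had the smallest p. It was 10.12 on siHOXB13 and 9.59 on siNC at 24 h, and 10.53 on the siHOXB13-labelled array and 9.81 on the siNC-labelled array at 48 h, with a fitted difference of 0.63 ± 0.36 (SE, limma, adjusted p = 1). With the 2 doubtful labels exchanged, that difference was -0.10. TXNRD1 was higher with siHOXB13 at 24 h (14.88 against 14.27) and lower on the siHOXB13-labelled array at 48 h (13.54 against 14.55), so its fitted difference of -0.20 ± 0.61 (SE) averages opposite signs, and it was 0.81 with the labels exchanged. At 48 h TXNRD1 was the 1 gene of the 9 past 2-fold lower, beside 4.62% of all genes, and 0 were past 2-fold higher, beside 5.22%. At 24 h no gene of the 9 was past 2-fold, beside 5.68% of all genes in either direction.

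The comparison of 48 h with 24 h over the 8 siRNA arrays includes the siHOXA11 arrays that chose the genes, so TXNRD1 is described without a test. Its mean was 14.26 at 24 h and 13.44 at 48 h, a difference of -0.82, and -0.29 without either siHOXA11 array. For the other genes the time difference lay between -0.23 (GCLM) and 0.41 (NFE2L2). NFE2L2 was 10.17 to 10.78 at 24 h and 10.67 to 11.22 at 48 h, so the 2 times overlapped, and the difference of 0.41 ± 0.24 (SE) did not pass (limma, adjusted p = 0.768). None of these 8 genes was called by limma, nor was any of all genes (0%), with 1180 genes at an unadjusted p under 0.05 and 0 of the 8 among them.

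At 48 h the 3 sh-titled arrays were compared with the 4 siRNA arrays, a contrast in which the way of silencing cannot be told apart from anything else that differed between the 2 sets. Limma called 147 genes higher (0.875% of 16808) and 23 lower (0.137%), and 0 of the 8 genes other than TXNRD1 in either direction. NFE2L2 was 11.58 on shNC, 11.03 on shIBSP(1) and 11.41 on shIBSP(2), against 10.67 to 11.22 on the siRNA arrays, and this had the smallest p of the 8, with a difference of 0.33 ± 0.23 (SE, limma, adjusted p = 0.744). TXNRD1 was 13.77, 13.81 and 13.44 on shNC, shIBSP(1) and shIBSP(2). The siRNA arrays of 48 h ran from 10.85, on siHOXA11, to 14.83. Without siHOXA11 they began at 13.54, on the siHOXB13-labelled array, so shIBSP(2) lay below them. The mean difference of TXNRD1 was 0.23, and -0.63 without the siHOXA11 array, which is given as a description because that array chose the gene.

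**Figure D5:**
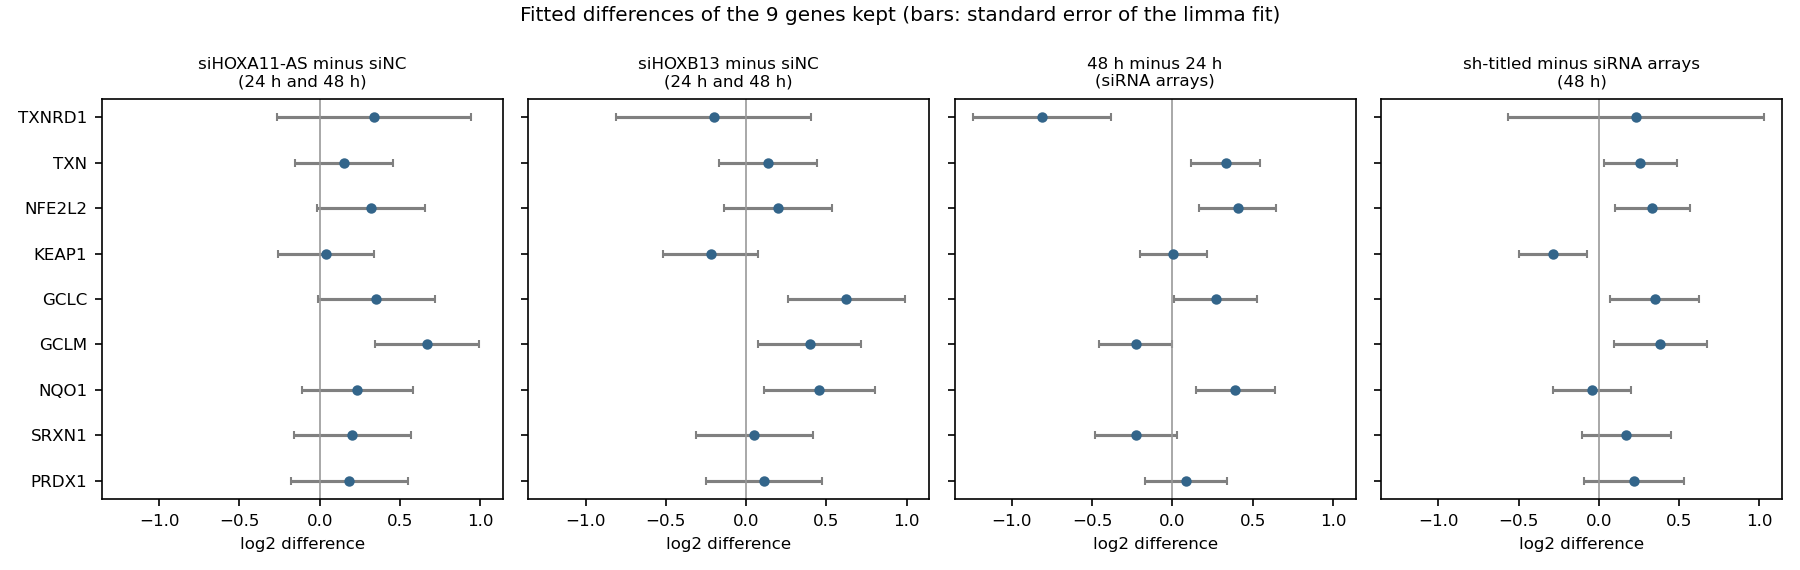
Fitted log2 difference (points) with its standard error (bars) of the 9 genes kept in the 4 comparisons, from left to right siHOXA11-AS minus siNC, siHOXB13 minus siNC, 48 h minus 24 h over the siRNA arrays, and sh-titled minus siRNA arrays at 48 h. None of the other 8 genes passed an adjusted p of 0.05 in any panel, nor did TXNRD1 in the 2 left panels. The bars of TXNRD1 are the widest, and in all 4 panels the fit behind them holds siHOXA11 arrays that chose it. Its values in the 2 left panels share the siNC arrays with that choice, so its lack of a call there is not read as a result. Its values in the 2 right panels rest on the siHOXA11 arrays.

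Between the sh-titled arrays the differences of the 9 genes from shNC lay between -0.66 and 0.60 with shIBSP(1) and between -0.73 and 0.25 with shIBSP(2). The SD of the difference over all genes was 0.39 and 0.49. The highest of the 9 were SRXN1 (0.60) with shIBSP(1) and NQO1 (0.25) with shIBSP(2). TXNRD1 on shIBSP(1) and shIBSP(2) differed from shNC by 0.03 and -0.33. GCLM was 8.66 on shNC, 8.0 on shIBSP(1) and 7.94 on shIBSP(2), the lowest difference of the 9 from shNC with each of them (-0.66 and -0.73). No gene of the 9 reached 2-fold from shNC with shIBSP(1) or with shIBSP(2), beside 2.11% and 5.85% of all genes in either direction. These differences rest on 1 array for each construct and on the same shNC array, and have no test.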

How the data were processed

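PC3 RNA was measured on 11 human Clariom D arrays. The deposited values are linear intensities, 1 for each probe set on each array, made by the authors with Affymetrix Expression Console per the labels. For its version, its summary method, its normalization and the build, the sources used here give nothing. Log2 was taken, with no further normalization in the main setting.

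Of 138745 probe sets, 36176 had 1 symbol in the annotation of the platform, 1119 had more and 101450 were unnamed here. A gene was read from the probe set of 1 symbol with the highest mean, and the 16808 of 33616 genes with a mean log2 level above 4.90 were kept, which leaves out HMOX1. Each of the 10 genes had 1 such probe set.

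Differences between single arrays have no test. limma 3.58.1 in R 4.3.3 (lmFit, eBayes) was used with treatment and time as terms on the 8 siRNA arrays (3 residual degrees of freedom) and with title kind on the 7 arrays of 48 h (5), with Benjamini-Hochberg adjustment at 0.05 over all genes kept. The p-values rest on the disagreement between 24 h and 48 h arrays or between differently treated arrays, so it also holds true changes. Nothing in the sources says that arrays came from separate cultures. The number of arrays limits the precision. The fits were also run on simulated data with independent noise on each array. The error here is of another kind, so nothing is read from that run.

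The 10 genes, the 5 pathway lists and the tests were chosen with earlier results of these data known. Named were the 10 genes, up to 4 genes of each list at least 2-fold different at 48 h with the same sign at 24 h or called by limma, the 5 genes most alike to TXNRD1 by Pearson correlation, and the targeted genes. Promoter sequences are those of RefSeq for GRCh38.p14, matched by symbol for 8 of the 10 genes, and siRNA target sequences are those of the study's supplementary material. Alternatives were no filter, quantile normalization, centring on the array median, averaged probe sets, an intensity trend, other sets of arrays, exchanged labels at 48 h, other controls for siHOXA11, and the methods' t-test.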

Additional observations from a re-analysis of the deposited data

How the results depend on the processing

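Under the 68 alternative fits run, none of the 8 genes kept other than TXNRD1 was called in any of the 4 tested comparisons. TXNRD1 was not called in the 2 comparisons with siNC, which share the siNC arrays with the contrast that chose it. Of the 36 fitted differences, 21 changed sign under at least 1 fit. With the labels of siNC and siHOXB13 at 48 h exchanged, 16 genes of all were called for siHOXA11-AS, 2 for siHOXB13 and 5 for time, TXNRD1 turned to 0.81 and GCLC to -0.10 for siHOXB13, and the 48 h difference of TXNRD1 with siHOXA11 was -2.69. That exchange, chosen after seeing the data for these counts, also raised the genes of the 9 at least 2-fold lower with siHOXA11 at 48 h from 1 to 2. The share of all genes was 13.2% as labelled and 14.3% with the exchange. Without both of those arrays TXNRD1 was 0.61 for siHOXB13. For time, 1 gene was called with each array centred on its median and 1 with all 11 arrays in the fit. For sh-titled against siRNA arrays the count of 170 became 346 with all 11 arrays and time as a term, 256 with centring, 34 without the 2 doubtful arrays and 0 by the methods' t-test after adjustment. Leaving out 1 array in turn gave 51 (without shNC) to 239 (without siHOXA11) genes there, with 52 without shIBSP(1), 79 without shIBSP(2) and 99 without the array labelled siNC. It moved the TXNRD1 difference from -0.39 to 1.07 for siHOXA11-AS, from -0.93 to 0.53 for siHOXB13 and from -0.63 to 0.70 for sh-titled arrays. The cause of these shifts was not tested. The TXNRD1 difference with siHOXA11 ran from -1.43 to -1.04 at 24 h and from -3.98 to -2.69 at 48 h over the settings run. Those of 24 h leave out siHOXB13 of 24 h as the control, against which TXNRD1 was at -1.65.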
